A study of Mus musculus with 8 samples.

Results

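The genes described here are 6 transcripts that neutrophils carry at high levels or that neutrophils and other myeloid cells make on activation: *S100a8*, *S100a9*, *Lcn2*, *Csf3r*, *Cxcr2* and *Il1b*. They were picked by symbol, with earlier results of these libraries known, and all 6 were found among the 23930 RefSeq targets measured. They were measured in liver sinusoidal endothelial cells, which line the liver's capillaries and are perforated by small pores, sorted from wild-type female Balb/c mice described as young. Mice had received iron citrate (150 µg, 4 libraries) or 0.05 M citrate buffer (4 libraries) into a vein 5 h before. Every library came from 1 mouse and from the same gate, CD45-dim, STAB2-high and CD146-high, and the design text names 5 samples per group, of which the others were not analysed here. The gate asks for little CD45, the surface protein that all leukocytes carry, so neutrophils are not what it was set to collect.

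Neutrophils are short-lived phagocytes that leave the marrow under granulocyte colony-stimulating factor and follow chemokines into tissue, and the liver sinusoid is one of the places where they gather. Their cytosol and granules are packed with antimicrobial proteins. Some of these, the S100A8 and S100A9 pair and lipocalin 2, act by withholding metals from microbes, zinc and manganese for the pair and siderophore-bound iron for the lipocalin. Interleukin-1 beta is made as an inactive precursor by neutrophils, monocytes and macrophages, is cut by caspase-1, and acts on endothelium to raise adhesion molecules.

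One buffer library, citrate buffer replicate 1, was unlike the remaining 7 and is therefore shown on its own. Over log2 CPM it correlated with the other buffer libraries at a median of 0.839, and each of the 7 with its group at 0.962 to 0.981. Counts on targets were between 7969520 and 11314659 per library. Sinusoidal endothelial markers were abundant throughout: the 14 listed genes summed to 27014 to 30038 CPM (counts scaled by library size) after iron citrate, against 25390 to 33598 CPM in citrate buffer replicates 2 to 4 and 16381 CPM in citrate buffer replicate 1. Gene families that liver is not known to express (olfactory, vomeronasal and taste receptors and keratin-associated proteins, 1286 targets) made up 2.42% of citrate buffer replicate 1, 0.983% of citrate buffer replicate 2 and 0.295% to 0.611% of the other 6 libraries.

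The promoters of *S100a8*, the gene of the metal-binding pair, and of *Il1b*, the cytokine, are printed because these were the only members with a TATAAA motif in the 250 bases before the start that RefSeq gives. That motif, in capitals, was searched on both strands and lies 30 and 31 bases before the start. It occurs in 12.4% of the 32851 promoter windows of the same length in the RefSeq table, which is on build GRCm38.p6. The *S100a8* window is chr3:90668821-90669070 on the plus strand and the *Il1b* window is chr2:129371140-129371389 on the minus strand, and both are written 5′ to 3′ along the gene.
S100a8: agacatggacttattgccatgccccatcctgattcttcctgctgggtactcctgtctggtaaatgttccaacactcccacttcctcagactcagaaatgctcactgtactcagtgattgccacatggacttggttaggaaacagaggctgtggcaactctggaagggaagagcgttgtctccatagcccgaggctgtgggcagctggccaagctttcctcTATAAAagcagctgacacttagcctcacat
Il1b: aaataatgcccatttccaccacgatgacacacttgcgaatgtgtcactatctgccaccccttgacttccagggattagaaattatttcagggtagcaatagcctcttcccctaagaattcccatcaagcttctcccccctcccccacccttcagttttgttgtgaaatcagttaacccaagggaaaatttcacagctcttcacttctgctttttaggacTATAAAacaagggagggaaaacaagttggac
Of 2 further motifs, GAGGAA lay in 4 of the 6 windows (23.3% of all windows), in *S100a8*, *Lcn2*, *Csf3r* and *Cxcr2*. TTGCNNAA lay in those of *S100a9* and *Lcn2* (9.56%). These are matches of letters, with no measurement of binding in these data.

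In the first group, the antimicrobial proteins, all 4 iron citrate libraries lay above citrate buffer replicates 2 to 4, while citrate buffer replicate 1 was the highest of the 8. The iron citrate libraries all lay above citrate buffer replicates 2 to 4 in 8.72% of all tested targets, and since the genes were chosen with these values known, their order is a description. *S100a8* encodes the smaller subunit of calprotectin, among the most abundant proteins of the neutrophil cytosol. It stood at 42.2, 40.9, 45.5 and 30.9 CPM in iron citrate replicates 1 to 4, against 115.8, 24.6, 21.2 and 23.9 CPM in citrate buffer replicates 1 to 4. The lowest iron citrate library was thus above 3 of the buffer libraries, and the groups of 4 overlapped through replicate 1 alone. The mean was 39.9 ± 6.31 CPM after iron citrate (SD, n = 4), against 23.2 ± 1.80 CPM in citrate buffer replicates 2 to 4 (n = 3), a ratio of 1.72. With replicate 1 the buffer mean was 46.4 ± 46.3 CPM (n = 4), an SD as large as the mean itself. In sorted bulk RNA, more neutrophils in the sort and more of these transcripts per cell cannot be told apart.

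*S100a9*, the partner subunit, stood at 74.8, 55.8, 71.3 and 45.1 CPM in iron citrate replicates 1 to 4, against 135.5, 31.1, 40.1 and 33.7 CPM in citrate buffer replicates 1 to 4. The order of the groups was that of *S100a8*, with the nearest pair, iron citrate replicate 4 and citrate buffer replicate 3, close together. The means were 61.7 ± 13.8 CPM after iron citrate and 34.96 ± 4.604 CPM in citrate buffer replicates 2 to 4, a ratio of 1.77. *Lcn2*, whose product binds the siderophores with which bacteria gather iron, had 62.5, 76.6, 56.0 and 57.05 CPM in iron citrate replicates 1 to 4, against 186.8, 46.1, 36.3 and 28.8 CPM in citrate buffer replicates 1 to 4. Its means of 63.0 ± 9.48 CPM after iron citrate and 37.1 ± 8.69 CPM in citrate buffer replicates 2 to 4 gave a ratio of 1.70, again with groups that did not overlap. *Lcn2* is not particular to neutrophils, since hepatocytes and other epithelia also make it under inflammatory signals.

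Both receptors followed the same order with larger ratios. *Csf3r*, the receptor for granulocyte colony-stimulating factor, stood at 71.7, 42.7, 42.8 and 54.9 CPM in iron citrate replicates 1 to 4, against 75.5, 26.6, 24.5 and 18.3 CPM in citrate buffer replicates 1 to 4. Here iron citrate replicate 1 came close to citrate buffer replicate 1. The means were 53.0 ± 13.7 CPM after iron citrate and 23.1 ± 4.34 CPM in citrate buffer replicates 2 to 4, a ratio of 2.29. *Cxcr2*, the receptor through which neutrophils follow the chemokines CXCL1, CXCL2 and CXCL5, was the sparsest member, with 14 to 109 counts per library. It had 6.16, 4.72, 5.04 and 4.13 CPM in iron citrate replicates 1 to 4, against 10.4, 3.01, 2.05 and 1.86 CPM in citrate buffer replicates 1 to 4. The exact 95% Poisson intervals, which cover counting error only, ran from 3.02 to 5.53 CPM in iron citrate replicate 4 and from 2.11 to 4.16 CPM in citrate buffer replicate 2, so these neighbours were not told apart at this depth. The means were 5.01 ± 0.851 CPM after iron citrate and 2.30 ± 0.616 CPM in citrate buffer replicates 2 to 4, a ratio of 2.18. *Cxcr2* has 1 coding exon, like the genes of the liver-silent families, and between 9.95% and 79.2% of those 1286 targets reached its level, depending on the library. Its values are thus within the range of targets with no known expression here, and the part of that signal in them was not tested. For the other 5 members the share was at most 0.622% in any library.

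*Il1b*, the cytokine, had the largest ratio of the 6 genes. It stood at 94.0, 59.8, 74.3 and 59.8 CPM in iron citrate replicates 1 to 4, against 133.5, 29.7, 32.0 and 23.98 CPM in citrate buffer replicates 1 to 4. All 4 iron citrate libraries exceeded the highest of citrate buffer replicates 2 to 4, and none reached citrate buffer replicate 1. The means were 72.0 ± 16.2 CPM after iron citrate and 28.6 ± 4.12 CPM in citrate buffer replicates 2 to 4, a ratio of 2.52.

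**Figure D1:**
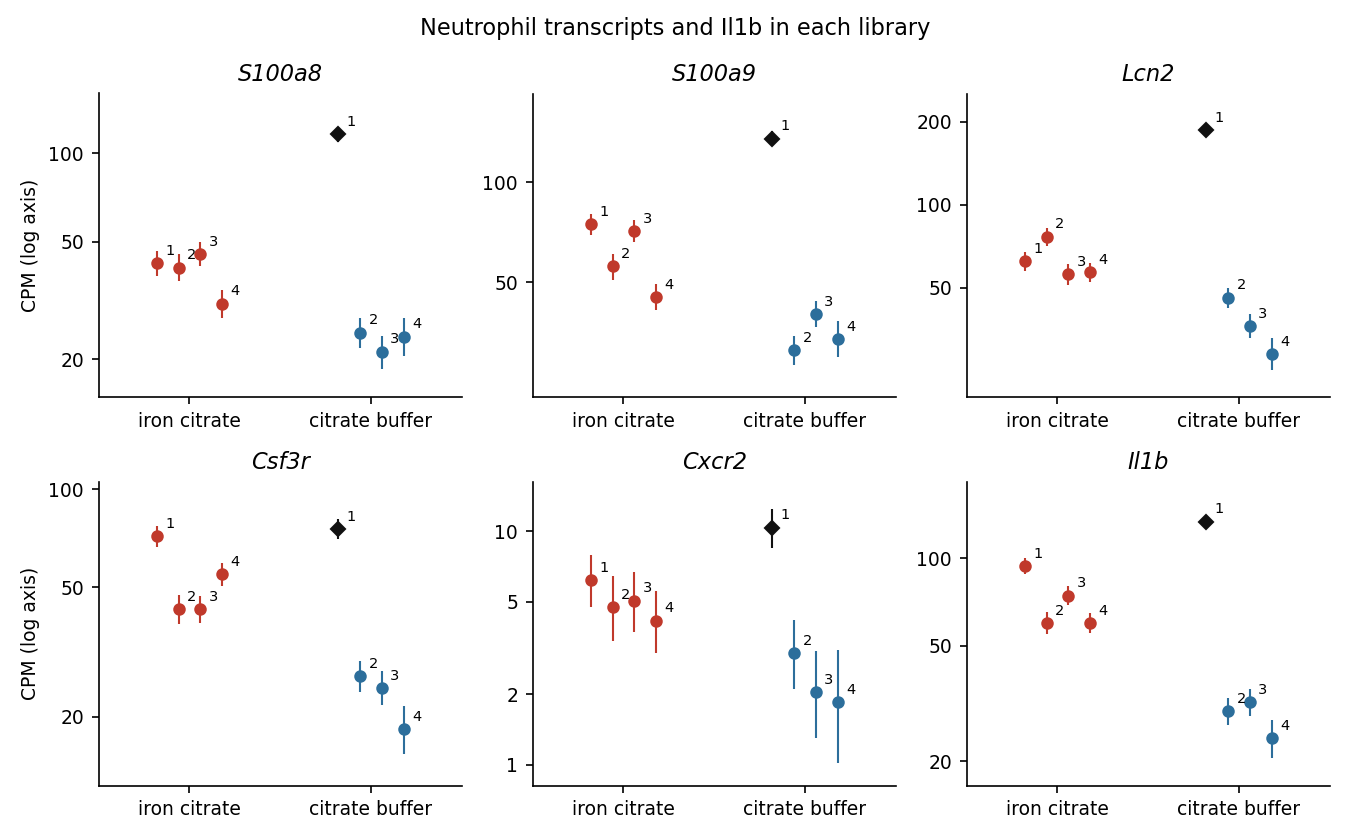
CPM of the 6 genes in each library on log axes, iron citrate (red) left of citrate buffer (blue, with replicate 1 as a black diamond); numbers are replicates and bars are exact 95% Poisson intervals of the counts. In each panel citrate buffer replicate 1 is the highest point and the 4 iron citrate points lie above citrate buffer replicates 2 to 4, from 59.8 to 94.0 CPM against 23.98 to 32.0 CPM for *Il1b*.

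Fold changes with their errors show how far replicate 1 sets the comparison. Over all 8 libraries the log2 fold change of iron citrate over citrate buffer was -0.22 (SE 0.52, 95% interval -1.38 to 0.94) for *S100a8*, 0.04 (SE 0.45, -0.97 to 1.04) for *S100a9* and -0.24 (SE 0.53, -1.42 to 0.93) for *Lcn2*. The signs of these 3 were not stable. For *S100a9* it turned with the scaling, to -0.13 with upper-quartile factors or library totals. With the replicate number as a block, *S100a8* stood at 0.20, *Lcn2* at 0.22 and *S100a9* at 0.31. Among the other 3 genes it was 0.55 (SE 0.41, -0.37 to 1.46) for *Csf3r*, 0.21 (SE 0.55, -1.02 to 1.44) for *Cxcr2* and 0.39 (SE 0.50, -0.74 to 1.52) for *Il1b*. All 6 intervals held 0.

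Without citrate buffer replicate 1 all 6 intervals lay above 0. The log2 fold change was 0.78 (SE 0.16, 0.44 to 1.11) for *S100a8*, 0.82 (SE 0.18, 0.44 to 1.19) for *S100a9* and 0.76 (SE 0.17, 0.40 to 1.12) for *Lcn2*, so the 3 antimicrobial genes lay close together. The receptors stood at 1.19 (SE 0.20, 0.77 to 1.61) for *Csf3r* and 1.10 (SE 0.34, 0.38 to 1.82) for *Cxcr2*, and *Il1b* at 1.33 (SE 0.18, 0.95 to 1.70). The intervals of the 6 genes overlapped one another, and differences between genes were not tested. The median over the 6 genes was 0.96, against -0.04 over all 14701 targets tested without that library, and 0.12 against -0.01 over the 14601 targets tested with all 8.

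**Figure D2:**
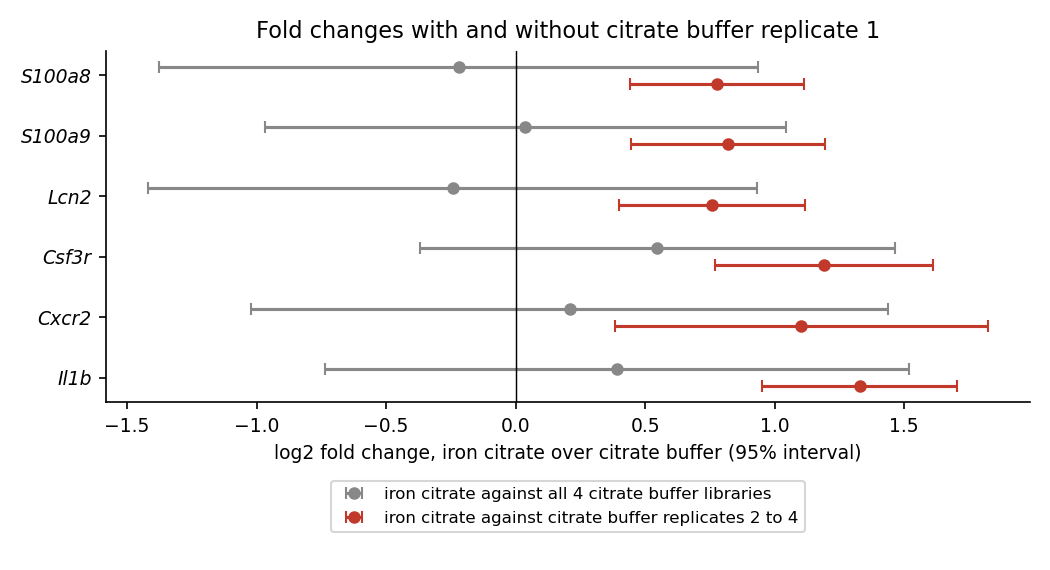
Log2 fold changes of iron citrate over citrate buffer with 95% intervals from edgeR, against all 4 citrate buffer libraries (grey) and against citrate buffer replicates 2 to 4 (red). Every grey interval crosses 0, and every red one lies above 0, from 0.76 for *Lcn2* to 1.33 for *Il1b*.

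With edgeR's quasi-likelihood test and Benjamini-Hochberg adjustment over all targets, 0 of the 6 genes passed an adjusted p of 0.05 over all 8 libraries, where 0.555% of the 14601 tested targets did. At an unadjusted p under 0.05 the count was also 0 of 6, where 14.6% of all tested targets passed, so 0 is near that share. DESeq2 called 0 of the 6 (it gave no p for *S100a8*, *Lcn2* and *Il1b*) and 2.5% of all targets, and limma-voom with sample weights called 2 as higher, *Csf3r* and *Il1b*, and 1.68% of all targets. Without citrate buffer replicate 1, 5 of the 6 passed as higher after iron citrate (all but *Cxcr2*), where 1.5% of the 14701 tested targets did. As the genes were chosen with these values known, nothing is read from that count. It went down to 2, *Csf3r* and *Il1b*, when 1 of 3 further libraries was left out (replicate 4 of citrate buffer, replicate 1 of iron citrate, replicate 2 of iron citrate), and to 3, these and *S100a9*, without citrate buffer replicate 3. With upper-quartile factors, library totals or a mean of at least 5 CPM it was 4, as *Lcn2* was lost. Without iron citrate replicate 3 it was 4, as *S100a9* was lost, and limma-voom called all 6. *Lcn2* was called in 8 of the 15 alternatives run without citrate buffer replicate 1. *Csf3r* and *Il1b* stayed called in all 15 of them. Those alternatives reuse the same libraries for genes chosen with their values known, so this too is a description and no support for a change. The order seen in all 6 genes, with iron citrate libraries all above citrate buffer replicates 2 to 4 and citrate buffer replicate 1 above all 7, was shared by 1.15% of tested targets.

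Proportions between the genes within a library are given as ratios of CPM, which compare libraries and not transcript numbers, since each gene is read through its own amplicon. *Lcn2* over *S100a8* was 1.23 to 1.87 in iron citrate libraries, against 1.21 to 1.87 in citrate buffer replicates 2 to 4 and 1.61 in replicate 1. *S100a9* over *S100a8* was 1.36 to 1.77 in iron citrate libraries, against 1.26 to 1.89 in citrate buffer replicates 2 to 4 and 1.17 in replicate 1. *Il1b* over *S100a8* was 1.46 to 2.23 in iron citrate libraries, against 1.01 to 1.51 in citrate buffer replicates 2 to 4 and 1.15 in replicate 1. *Csf3r* over *S100a8* was 0.940 to 1.78 after iron citrate, against 0.767 to 1.16 in citrate buffer replicates 2 to 4 and 0.652 in replicate 1. The ranges after iron citrate and in citrate buffer replicates 2 to 4 overlapped for all 4 ratios. For *Il1b* the overlap was 1 library on each side, iron citrate replicate 2 and citrate buffer replicate 3.

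Other neutrophil granule genes were few among the tested targets. Of 22 listed genes 18 were measured, and 10 had enough counts to be tested without citrate buffer replicate 1. Of these edgeR called 0, with 1 at an unadjusted p under 0.05, 1 called by DESeq2 and 0 by limma-voom. Over all targets tested without that library, 13.2% had an unadjusted p under 0.05, DESeq2 called 3.59% and limma-voom 4.16%, and in all the lists described here counts this small are to be read against those shares. In 0 of the 10 were all iron citrate libraries above citrate buffer replicates 2 to 4, a count near the 8.72% of all tested targets, and the median log2 fold change was 0.33. *Mmp8*, the neutrophil collagenase, had 31.9, 28.2, 30.0 and 9.92 CPM in iron citrate replicates 1 to 4, against 51.6, 13.2, 11.4 and 8.35 CPM in citrate buffer replicates 1 to 4. Iron citrate replicate 4 fell among the buffer libraries, and the log2 fold change without citrate buffer replicate 1 was 1.17 (SE 0.32, edgeR adjusted p = 0.0969). *Ngp*, a secondary-granule protein of maturing neutrophils, varied widely within groups, at 2.64, 52.4, 48.5 and 91.9 CPM in iron citrate replicates 1 to 4, against 65.9, 71.6, 18.5 and 52.7 CPM in citrate buffer replicates 1 to 4. *Ltf*, lactoferrin, was likewise lowest in iron citrate replicate 1, at 0.293 CPM. The library that was lowest for these granule proteins was thus the highest iron citrate library for *Il1b* and *Csf3r*. *Mmp9* stood at 34.3 ± 7.45 CPM after iron citrate, against 32.2 ± 7.04 CPM in citrate buffer replicates 2 to 4, and *Pglyrp1* at 19.3 ± 1.07 CPM after iron citrate against 18.4 ± 4.74 CPM in buffer replicates 2 to 4. The primary-granule genes *Elane*, *Mpo*, *Prtn3* and *Ctsg*, made in marrow precursors, averaged under 1 CPM both after iron citrate and in citrate buffer replicates 2 to 4.

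Of 26 tested genes of the neutrophil surface and effector list, 1 rose without citrate buffer replicate 1 and 0 fell, with 7 at an unadjusted p under 0.05, 6 of them higher, and with 2 calls by DESeq2 and 3 by limma-voom. Over all 8 libraries edgeR called 0, with 3 at an unadjusted p under 0.05, and DESeq2 called 0 and limma-voom 2. Over all targets the 8-library shares were 14.6% at an unadjusted p, 2.5% by DESeq2 and 1.98% by limma-voom. *Retnlg*, a resistin-like protein of mature neutrophils, was the gene that rose. It had 54.9, 43.2, 52.1 and 25.9 CPM in iron citrate replicates 1 to 4, against 45.0, 16.03, 19.5 and 20.8 CPM in citrate buffer replicates 1 to 4. The log2 fold change was 1.23 (SE 0.22, edgeR adjusted p = 0.00846) without citrate buffer replicate 1 and 0.80 (adjusted p = 0.333) with it. The call without that library was kept in all 15 alternatives. In 4 of the 26, *Retnlg*, *Clec4d*, *Trem1* and *Trem3*, all iron citrate libraries lay above citrate buffer replicates 2 to 4, and in 1, *Mmp25*, below. Over all tested targets the shares were 8.72% above and 4.19% below. *Clec4d*, a myeloid lectin receptor, averaged 8.64 ± 1.33 CPM after iron citrate, against 3.43 ± 1.39 CPM in citrate buffer replicates 2 to 4 (adjusted p = 0.0505). The other chemokine receptor of the pair, *Cxcr1*, stood at 13.2 ± 3.45 CPM after iron citrate against 18.6 ± 4.57 CPM in buffer replicates 2 to 4, with a log2 fold change of -0.51 (adjusted p = 0.367). *Ly6g*, the defining surface antigen of mouse neutrophils, was near the bottom, at 0.963 ± 0.350 CPM after iron citrate against 1.53 ± 0.685 CPM in buffer replicates 2 to 4.

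Abundant genes of that list are shared with other leukocytes. *Itgb2*, the common integrin chain of leukocytes, stood at 156 ± 41.8 CPM after iron citrate against 166 ± 56.6 CPM in buffer replicates 2 to 4. *Selplg*, the P-selectin ligand, had 115 ± 12.4 CPM after iron citrate against 121 ± 26.4 CPM in buffer replicates 2 to 4, and *Itgam*, the alpha chain of the Mac-1 integrin, 60.3 ± 13.8 CPM after iron citrate against 57.3 ± 13.4 CPM in buffer replicates 2 to 4. None of these 3 passed the test.

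**Figure D3:**
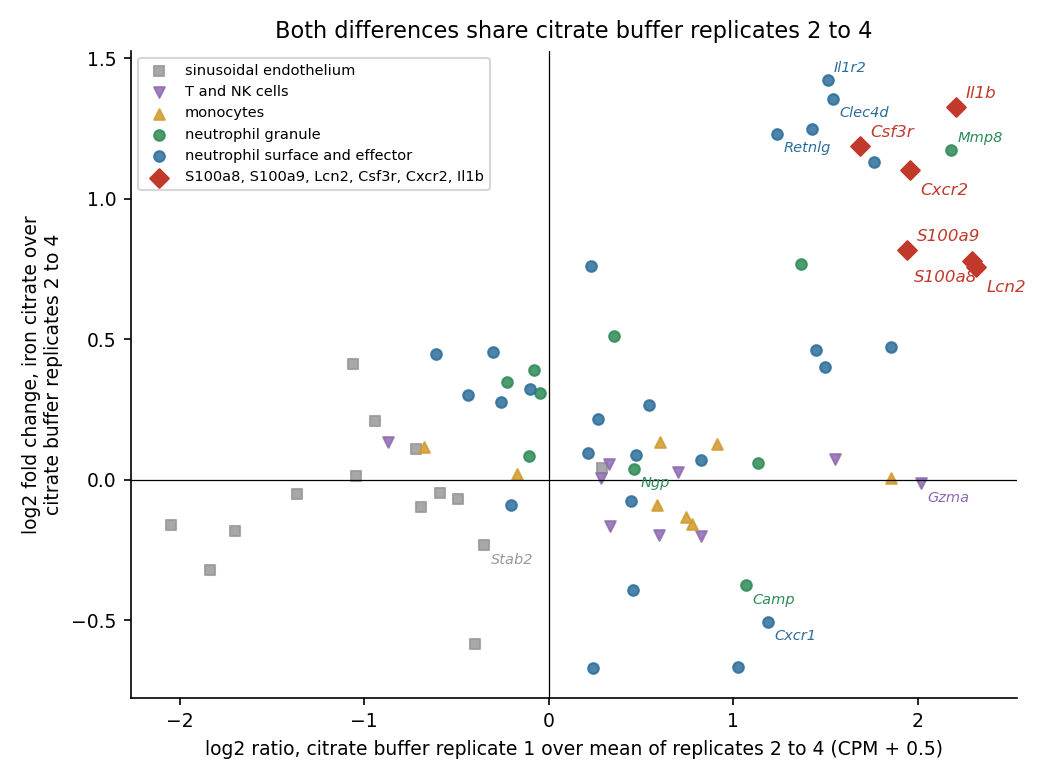
Each point is a gene: the y axis is the log2 fold change of iron citrate over citrate buffer replicates 2 to 4, the x axis the log2 ratio of citrate buffer replicate 1 over the mean of replicates 2 to 4 (with 0.5 CPM added to each). The axes share those 3 libraries, so their joint spread is no result. The 6 genes (red diamonds) lie at the upper right, while *Ngp* and *Gzma* lie right of 0 with fold changes near 0.

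Among 23 genes of the IL-1 family and the inflammasome, 1 rose without citrate buffer replicate 1 and 0 fell. Without that library 6 had an unadjusted p under 0.05, 3 of them higher, where 13.2% of all tested targets did. DESeq2 then called 2 and limma-voom 1, against 3.59% and 4.16% of all tested targets. Over all 8 libraries 0 passed, with 2 at an unadjusted p under 0.05, 1 called by DESeq2 and 0 by limma-voom. The gene that rose was *Il1f9*, the reference table's name for *Il36g*, an IL-36 cytokine of epithelia and myeloid cells. It had 21.1, 16.4, 15.7 and 12.4 CPM in iron citrate replicates 1 to 4, against 33.7, 6.76, 8.99 and 6.63 CPM in citrate buffer replicates 1 to 4, the order of the 6 genes. Its log2 fold change without citrate buffer replicate 1 was 1.13 (SE 0.24, edgeR adjusted p = 0.0229). That call was lost on leaving out replicate 4 of citrate buffer (adjusted p = 0.0714) or, of iron citrate, replicate 1 (adjusted p = 0.114) or replicate 2 (adjusted p = 0.0722). *Il1a*, the sister cytokine of *Il1b*, stood at 420 ± 170 CPM after iron citrate against 551 ± 89.2 CPM in citrate buffer replicates 2 to 4, with a log2 fold change of -0.39 (adjusted p = 0.563) and 276 CPM in replicate 1. Neither the receptors nor the signalling and processing genes passed the test. *Il1r1*, the receptor for both cytokines, had 42.4, 40.4, 36.2 and 35.5 CPM in iron citrate replicates 1 to 4, against 49.3, 59.6, 47.9 and 52.3 CPM in citrate buffer replicates 1 to 4. All 4 iron citrate libraries were below all 4 buffer libraries, with a log2 fold change of -0.44 over 8 libraries (adjusted p = 0.292) and -0.47 without citrate buffer replicate 1 (95% interval -0.75 to -0.18, adjusted p = 0.109). *Casp4*, a caspase that senses bacterial lipopolysaccharide, was likewise below in all 4, at 32.6 ± 2.44 CPM after iron citrate against 42.3 ± 5.03 CPM in buffer replicates 2 to 4 (adjusted p = 0.236). *Irak1*, a kinase of the pathway, was above in all 4, at 35.5 ± 2.33 CPM after iron citrate against 26.4 ± 5.45 CPM in buffer replicates 2 to 4 (adjusted p = 0.237). *Myd88*, the adaptor of IL-1 receptors, stood at 56.3 ± 8.51 CPM after iron citrate against 56.3 ± 6.07 CPM in buffer replicates 2 to 4. *Casp1*, which cuts the IL-1 beta precursor, stood at 62.6 ± 12.4 CPM after iron citrate against 53.9 ± 6.36 CPM in buffer replicates 2 to 4, and the kinase *Irak4* at 59.5 ± 9.39 CPM after iron citrate against 50.9 ± 1.26 CPM in buffer replicates 2 to 4.

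Genes whose products draw neutrophils or sustain them did not pass. Of 13 tested, edgeR called 0 without citrate buffer replicate 1, with 1 at an unadjusted p under 0.05 and 1 each by DESeq2 and limma-voom. Over all 8 libraries it called 0, with 2 at an unadjusted p under 0.05 and 0 by either other tool. *Cxcl1*, a ligand of CXCR2, stood at 13.2 ± 6.06 CPM after iron citrate against 17.4 ± 5.38 CPM in citrate buffer replicates 2 to 4. *Csf3*, the ligand of CSF3R, averaged under 1 CPM both after iron citrate and in citrate buffer replicates 2 to 4. *Csf1*, the macrophage growth factor, stood at 481 ± 197 CPM after iron citrate against 393 ± 108 CPM in buffer replicates 2 to 4, and *Cxcl12* at 46.6 ± 15.5 CPM after iron citrate against 39.0 ± 12.5 CPM in buffer replicates 2 to 4, with its receptor *Cxcr4* at 83.8 ± 25.6 CPM after iron citrate against 84.0 ± 9.60 CPM in buffer replicates 2 to 4. *Ccl3*, a chemokine of activated myeloid cells, stood at 56.9 ± 14.9 CPM after iron citrate against 38.7 ± 19.2 CPM in buffer replicates 2 to 4, and at 184 CPM in citrate buffer replicate 1.

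Of 8 tested receptors for S100 alarmins and lipocalin 2, 1 rose without citrate buffer replicate 1 and 0 fell. It was *Cd33*, a lectin of myeloid cells listed because the human protein is reported to bind S100A9. *Cd33* had 14.1, 12.6, 13.2 and 6.43 CPM in iron citrate replicates 1 to 4, against 17.1, 5.26, 4.27 and 2.12 CPM in citrate buffer replicates 1 to 4, a log2 fold change of 1.54 without replicate 1 (SE 0.35, edgeR adjusted p = 0.0381). The call was lost in 8 of 15 alternatives, with adjusted p-values up to 0.134. They were upper-quartile factors, library totals, a mean of at least 5 CPM, and leaving out either replicate 3 (0.122) or replicate 4 (0.104) of citrate buffer, or replicate 1 (0.134), replicate 2 (0.124) or replicate 3 (0.0639) of iron citrate. *Tlr4* and *Ly96*, the receptor pair for S100A8, stood at 124 ± 8.63 CPM after iron citrate against 111 ± 18.3 CPM in buffer replicates 2 to 4 and at 204 ± 41.8 CPM after iron citrate against 177 ± 27.6 CPM in buffer replicates 2 to 4. Over all 8 libraries edgeR called 0 of the 8, with 0 at an unadjusted p under 0.05 and 0 by DESeq2 or limma-voom.

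No other S100 gene passed the test. Of 6 tested, edgeR, DESeq2 and limma-voom each called 0 both with and without citrate buffer replicate 1. Over all 8 libraries 0 had an unadjusted p under 0.05. Without that library 1 had an unadjusted p under 0.05, and the median log2 fold change was -0.26. *S100a16*, the most abundant, stood at 294 ± 60.6 CPM after iron citrate against 377 ± 75.8 CPM in buffer replicates 2 to 4, *S100a13* at 179 ± 20.5 CPM after iron citrate against 204 ± 7.96 CPM in buffer replicates 2 to 4, *S100a10* at 178 ± 21.4 CPM after iron citrate against 187 ± 31.1 CPM in buffer replicates 2 to 4 and *S100a1* at 110 ± 13.4 CPM after iron citrate against 138 ± 24.4 CPM in buffer replicates 2 to 4. These 4 are expressed in many tissues and not known as neutrophil proteins.

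Among 13 endothelial genes that leukocytes use to adhere and cross, 1 fell without citrate buffer replicate 1 and 0 rose. *Icam2*, a ligand of leukocyte integrins that endothelium carries at rest, had 83.8, 89.3, 104.2 and 92.6 CPM in iron citrate replicates 1 to 4, against 89.8, 133.6, 147.1 and 141.8 CPM in citrate buffer replicates 1 to 4. Its log2 fold change without replicate 1 was -0.61 (SE 0.12, edgeR adjusted p = 0.0132), a call lost on leaving out replicate 3 of citrate buffer (adjusted p = 0.0874) or replicate 1 (0.0647) or replicate 2 (0.0554) of iron citrate. With all 8 libraries the adjusted p was 0.333. Of the 13, 0 were then called by edgeR, 2 had an unadjusted p under 0.05, DESeq2 called 0 and limma-voom 1. Without citrate buffer replicate 1, 4 of the 13 had an unadjusted p under 0.05, 1 of them higher, where 13.2% of all tested targets did. DESeq2 then called 1 and limma-voom 3, against 3.59% and 4.16% of all tested targets. *Icam1*, which IL-1 raises in endothelium, stood at 47.9 ± 9.01 CPM after iron citrate against 42.9 ± 3.86 CPM in buffer replicates 2 to 4, *Vcam1* at 71.8 ± 15.4 CPM after iron citrate against 86.2 ± 34.5 CPM in buffer replicates 2 to 4 and *Selp* at 38.8 ± 14.9 CPM after iron citrate against 37.1 ± 6.13 CPM in buffer replicates 2 to 4. None of these passed.

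Marker lists of other cells were summed beside the 6 genes, because leukocytes other than neutrophils could carry *Il1b* and *Csf3r*. The 6 genes summed to 252 to 351 CPM after iron citrate, against 130 to 161 CPM in citrate buffer replicates 2 to 4 and 657 CPM in replicate 1. The 10 pan-leukocyte genes, *Ptprc* and *Lcp1* among them, summed to 3862 to 4266 CPM after iron citrate, against 3667 to 4577 CPM in citrate buffer replicates 2 to 4, and were highest in replicate 1 at 6030 CPM. Monocyte genes summed to 637 to 813 CPM after iron citrate, against 673 to 933 CPM in citrate buffer replicates 2 to 4 and 1317 CPM in replicate 1. T and NK cell genes summed to 1064 to 1294 CPM after iron citrate, against 946 to 1480 CPM in citrate buffer replicates 2 to 4 and 2781 CPM in replicate 1. In these 3 lists iron citrate libraries thus overlapped citrate buffer replicates 2 to 4, where the 6 genes did not, and citrate buffer replicate 1 was above all others, as it was for the 6 genes. The 6 genes were chosen with these values known, so that contrast is a description.

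Kupffer cell genes summed to 241 to 606 CPM after iron citrate, against 288 to 368 CPM in citrate buffer replicates 2 to 4 and 125 CPM in replicate 1. The granule list summed to 104 to 173 CPM after iron citrate, against 98.8 to 164 CPM in citrate buffer replicates 2 to 4 and 221 CPM in replicate 1. The surface and effector list summed to 1025 to 1279 CPM after iron citrate, against 888 to 1084 CPM in citrate buffer replicates 2 to 4 and 1465 CPM in replicate 1. Dendritic cell genes summed to 615 to 647 CPM after iron citrate, against 458 to 496 CPM in citrate buffer replicates 2 to 4. In citrate buffer replicate 1 they summed to 428 CPM. For the dendritic sum, as for that of the 6 genes, iron citrate libraries thus lay apart from citrate buffer replicates 2 to 4. Among the 8 dendritic genes this held for 1, *Clec9a*, with all iron citrate libraries above, where 8.72% of all tested targets did so. The median log2 fold change of the 8 without citrate buffer replicate 1 was 0.008, so the list as a whole did not rise. The part of leukocyte content in the levels of the 6 genes was not tested. *Ptprc* itself, the gene of CD45, was at 165 to 208 CPM after iron citrate, against 135 to 202 CPM in citrate buffer replicates 2 to 4 and 382 CPM in replicate 1. Without citrate buffer replicate 1, edgeR called 0 of the 10 pan-leukocyte genes (2 at an unadjusted p under 0.05, 1 by DESeq2, 1 by limma-voom), and 0 of the 8 monocyte, 9 T and NK cell and 10 Kupffer cell genes tested (0 at an unadjusted p under 0.05 and by either other tool). *Clec9a*, a lectin of conventional dendritic cells, was the listed dendritic gene that rose, at 334.8, 334.8, 327.0 and 337.1 CPM in iron citrate replicates 1 to 4, against 187.0, 208.9, 171.0 and 220.2 CPM in citrate buffer replicates 1 to 4 (edgeR adjusted p = 0.0221 over 8 libraries). *Mcam*, which encodes CD146, the antigen of the gate, fell without citrate buffer replicate 1. It had 180.9, 165.3, 192.8 and 177.9 CPM in iron citrate replicates 1 to 4, against 204.0, 255.0, 266.6 and 285.2 CPM in citrate buffer replicates 1 to 4 (adjusted p = 0.239 over 8 libraries and 0.0135 without citrate buffer replicate 1). The part of the gate in the levels of the 6 genes was not tested. No listed marker gene was at 0 in every library.

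**Figure D4:**
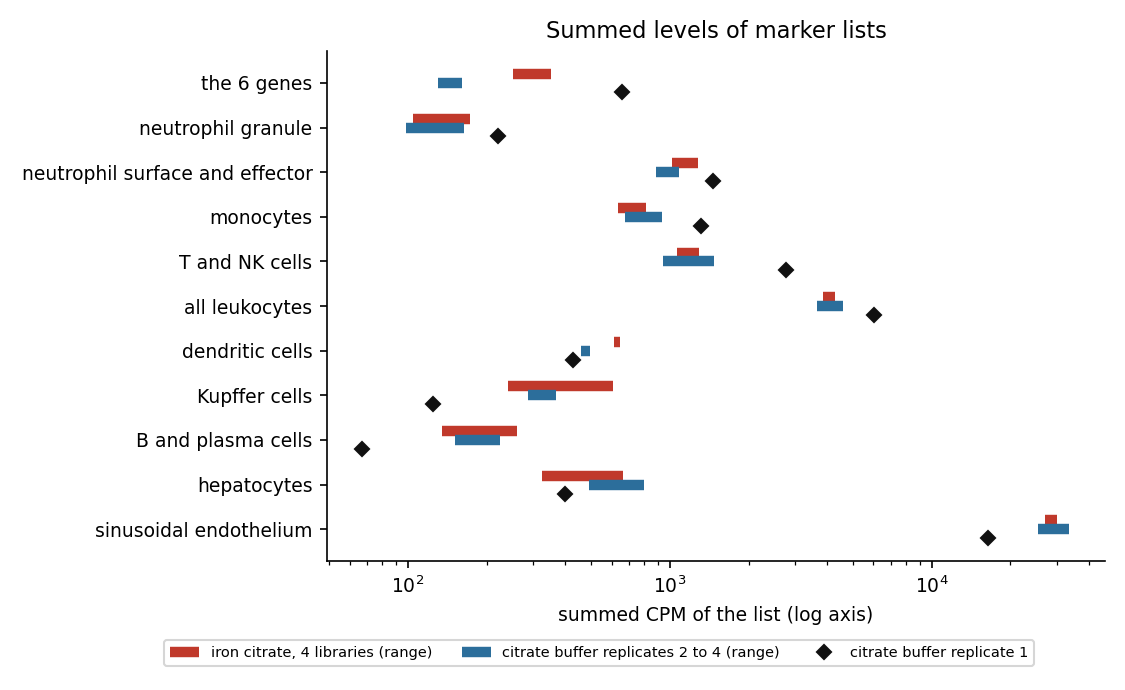
Summed CPM of marker lists on a log axis: ranges over the 4 iron citrate libraries (red) and citrate buffer replicates 2 to 4 (blue), with citrate buffer replicate 1 as a black diamond. The red and blue bars are apart for the 6 genes, at 252 to 351 CPM after iron citrate and 130 to 161 CPM in citrate buffer replicates 2 to 4, and overlap for granule, monocyte, T and NK cell and pan-leukocyte genes. The bars are also apart for dendritic cell genes, though only 1 of those 8 genes, *Clec9a*, had all iron citrate libraries above citrate buffer replicates 2 to 4. These summed to 615 to 647 CPM after iron citrate and 458 to 496 CPM in citrate buffer replicates 2 to 4.

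The targets whose log2 CPM followed most closely the mean of the 5 neutrophil genes were sought among 11678 targets with a mean of at least 5 CPM. The correlations are given as a description, since the points are the same few libraries throughout, with citrate buffer replicate 1 apart from the rest in the set of 8 and the group difference running through the set of 7. Over 8 libraries they were *Trip11* (Pearson's r = 0.979), *Tpr* (0.976), *Il1f9* (0.971), *Il1b* itself (0.969) and *Asxl2* (0.966). Over the 7 libraries without citrate buffer replicate 1, *Il1b* was second (0.982), behind *Myo9a* (0.990) and ahead of *Tgif1* (0.976), *Tfdp1* (0.973) and *Trim16* (0.969). *Il1b* was followed most closely over 8 libraries by *Il1f9* (0.979), the guanine deaminase *Gda* (0.973), *Slfn4* (0.968), *P3h2* (0.963) and *Dhrs9* (0.962), with *Csf3r* in place 6 (0.961). Over 7 libraries its nearest were *Tmem38b* (0.988), *Cd300lf* (0.987), *Rnmt* (0.978), *Sbno2* (0.977) and *Trip11* (0.976). *Slfn4*, a schlafen gene of myeloid cells, stood at 21.0 to 34.5 CPM after iron citrate, against 7.77 to 11.9 CPM in citrate buffer replicates 2 to 4 and 58.2 CPM in replicate 1.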

How the data were processed

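Sorted liver sinusoidal endothelial cells were profiled with the Ion AmpliSeq mouse transcriptome kit, which reads each target through 1 short amplicon, per the labels' protocols. Each library's deposited file holds raw counts for 23930 RefSeq targets. The submitters' processing notes name HTSeq 0.6.0 and DESeq2 1.18.1; aligner and build: not given in the sources used here. HTSeq's summary lines (2.15% to 4.60% of reads) were left out. Symbols were matched by versioned accession (18128 targets), without version (4324) or through a second RefSeq table (110), and 1368 had no match. Targets of near-identical genes can share reads.

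The tested contrast was iron citrate over citrate buffer, with all 8 libraries and without citrate buffer replicate 1, in edgeR 4.0.16 (R 4.3.3): filterByExpr, TMM factors, robust quasi-likelihood F-test, Benjamini-Hochberg adjustment, called at an adjusted p under 0.05. SEs come from the F statistic, and CPM use TMM-scaled library sizes. Counts came to 7969520 to 11314659 per library. There are no molecular identifiers, so Poisson intervals cover counting error only, and p-values reflect only how these mice differ. Chi-square per degree of freedom was at least 8.34 in all 28 library pairs, so none was a duplicate. No label says that replicate numbers pair libraries. Deviations of same-numbered libraries from their group means correlated at -0.32 to 0.61. Those means include citrate buffer replicate 1, so these correlations cannot decide whether libraries were paired. Simulated counts over 14478 genes were tested in the 8-library design: 34 of 96 genes with a 2-fold change were called, 73 of 98 with a 4-fold change, and 7 of 14284 without any. The simulation drew every gene independently and held no library set apart like citrate buffer replicate 1. Its rates therefore need not hold for these libraries.

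The members and gene lists were chosen with earlier results of these data known, so members get no p. Named beside them were the 4 most abundant genes of each response list and any called one, marker genes likewise, and the 5 targets most alike. 1 gene that this rule names is not reported here. *Ltf*, *Elane*, *Mpo*, *Prtn3*, *Ctsg*, *Clec4d*, *Trem1*, *Trem3*, *Mmp25*, *Cxcr1*, *Ly6g*, *Il1r1*, *Casp4*, *Irak1*, *Cxcl1*, *Csf3*, *Icam1*, *Vcam1* and *Selp* were named after their values were seen or for their role. Alternatives were other scaling factors, DESeq2 1.42.0, limma-voom (limma 3.58.1) with sample weights, other low-count filters, the replicate block and left-out libraries. A covariate for liver-silent families, and left-out libraries without citrate buffer replicate 1, were added after seeing the data. Motifs were searched in RefSeq windows of build GRCm38.p6.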

Additional observations from a re-analysis of the deposited data

Results flagged for a closer look

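Within a group of 4 libraries, a value was singled out when its gap to the nearest other exceeded Dixon's 95% limit, one that chance passes in about 5% of groups. The groups tested share the same libraries and include genes chosen with their values known. How many values were singled out is therefore a description, not to be set against that 5%. Of 120 groups of 4 library values tested, 16 had such a value, and 11 of these were citrate buffer replicate 1. All 6 genes were among them in that library: *S100a8* at 115.8 CPM, *S100a9* at 135.5 CPM, *Lcn2* at 186.8 CPM, *Csf3r* at 75.5 CPM, *Cxcr2* at 10.4 CPM and *Il1b* at 133.5 CPM. The other 3 buffer libraries spanned 21.2 to 24.6 CPM for *S100a8* and 23.98 to 32.0 CPM for *Il1b*. In the same library *Mmp8* (51.6 CPM), *Retnlg* (45.0 CPM), *Il1f9* (33.7 CPM), the mast cell protease *Cpa3* (25.5 CPM) and the lymphocyte granzyme *Gzma* (1261 CPM) were also high.

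The remaining 5 values lay in other libraries. *Mmp8* was low in iron citrate replicate 4, at 9.92 CPM against 28.2 to 31.9 CPM in the other iron citrate libraries. *Casp1* was low in citrate buffer replicate 2, at 46.6 CPM. *Esam* (765 CPM) and *Cd68* (62.6 CPM) were high in iron citrate replicate 3, and *Alb* (479 CPM) in iron citrate replicate 1.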

How the results depend on the processing

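Over all 8 libraries 81 genes were called. DESeq2 called 365, limma-voom 289, the fit without citrate buffer replicates 1 and 2 281, and the covariate for liver-silent families 327; leaving out 1 library at a time gave 46 to 259. With the replicate block 43 were called, and 413 without citrate buffer replicate 1, although no label says that the numbers pair libraries (1 of 4 iron citrate libraries correlated best with its own number). Without citrate buffer replicate 1, 259 were called (221 higher, 38 lower), 172 and 67 with upper-quartile factors, 528 in all with DESeq2, 611 with limma-voom, 423 with no low-count filter, and 116 to 281 with 1 more library left out (116 without citrate buffer replicate 3, 164 without iron citrate replicate 1 or 2). The cause was not tested. Upper-quartile factors and library totals moved the median of all genes by -0.115 and -0.103 with 8 libraries. DESeq2 gave no p for *S100a8*, *Lcn2* and *Il1b* over 8 libraries.

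Over 8 libraries the members' log2 fold changes moved under several alternatives, and the cause was not tested. With the replicate block *S100a8* turned to 0.20 and *Lcn2* to 0.22. With limma-voom the members stood at 0.73 (*S100a8*), 0.75 (*Lcn2*), 1.14 (*Cxcr2*) and 1.26 (*Il1b*). Without citrate buffer replicates 1 and 2 they were 0.82 (*S100a8*), 0.95 (*Lcn2*), 1.301 (*Csf3r*) and 1.35 (*Cxcr2*, *Il1b*). With the covariate they were 0.86 (*S100a8*), 0.81 (*S100a9*), 0.98 (*Lcn2*), 1.35 (*Csf3r*), 1.29 (*Cxcr2*) and 1.42 (*Il1b*). That fit called 1 of the 6, *Csf3r*, and 327 of the 14601 tested targets. The covariate was highest in citrate buffer replicate 1, at 2.42% of counts, with 0.983% in citrate buffer replicate 2 and less in the rest. The fit is thus not independent of leaving that replicate 1 out. Leaving out 1 library gave -0.46 to 0.78 for *S100a8*, -0.18 to 0.82 for *S100a9*, -0.50 to 0.76 for *Lcn2*, 0.34 to 1.19 for *Csf3r*, -0.027 to 1.10 for *Cxcr2* and 0.15 to 1.33 for *Il1b*. Without citrate buffer replicate 1 all member fold changes stayed positive in every alternative run, from 0.61 for *Lcn2* to 1.41 for *Il1b*. *Cxcr2* gave no value at a mean of at least 5 CPM.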
